A study of Mus musculus with 16 samples.

Results

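Interneuron identity genes were followed in primary mouse cortical cultures, over 10 genes of the 21368 gene symbols on the array. The 10 genes were chosen by name: the GABA synthesis and transport genes Gad1, Gad2 and Slc32a1, the neuropeptide genes Sst, Npy, Cck and Vip, and the transcription factor genes Dlx1, Dlx2 and Sp8. They were found through the RefSeq accession of each probe, which gave 12 of 55681 probes, since Slc32a1 and Sp8 have 2 probes each. The 16 one-colour arrays fall into 4 groups of 4. Astrocyte cultures from C57BL/6 pups of postnatal days 0 to 5 were grown in serum, shaken for 15 h and given 1 nM recombinant secreted Klotho or PBS vehicle for 24 h. Neuron cultures from the cortex of C57BL/6 embryos at embryonic day 16 were given the same 2 treatments for 24 h at 14 days in vitro. The labels do not say whether the 4 replicates of a group were separate cultures, so every p-value rests on variation among these samples alone, and that variation may be technical. The stage label of the astrocyte samples gives embryonic day 16, unlike their protocol.

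GABA-releasing interneurons are the inhibitory cells of the cortex. They arise outside it, in the ganglionic eminences of the ventral forebrain, where Dlx transcription factors set the programme that switches on GABA synthesis, and they then migrate into the cortex. Mature classes are told apart by neuropeptides, and none of the 4 peptide genes is exclusive to interneurons: Cck is also made by cortical pyramidal cells. Secreted Klotho is the circulating form of a protein known for its roles in ageing and mineral balance.

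The neuropeptide promoters are shown because Sst is the textbook gene with a cyclic AMP response element, and because the 4 peptide genes differed in astrocytes: Sst and Vip were below detection on every array, Cck on 4 of 8 and Npy on none. Each line holds the 100 bases before the annotated start of transcription, 5' to 3' on the strand of the gene, from RefSeq on build GRCm38.p6, and capitals mark TGACG or its reverse complement CGTCA, the core of the cyclic AMP response element. The windows are chr16:23890845-23890944 on the minus strand for Sst, chr6:49822610-49822709 on the plus strand for Npy, chr9:121495695-121495794 on the minus strand for Cck and chr10:5639118-5639217 on the plus strand for Vip.
Sst: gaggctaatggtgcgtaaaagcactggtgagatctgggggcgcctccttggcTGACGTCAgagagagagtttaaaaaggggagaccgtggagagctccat
Cck: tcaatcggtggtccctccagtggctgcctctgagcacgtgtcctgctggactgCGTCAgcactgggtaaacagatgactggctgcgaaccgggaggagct
Vip: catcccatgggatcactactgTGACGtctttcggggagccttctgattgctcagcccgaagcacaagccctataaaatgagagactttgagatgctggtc
Npy: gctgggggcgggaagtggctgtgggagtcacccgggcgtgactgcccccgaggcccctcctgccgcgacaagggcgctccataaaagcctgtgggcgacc

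The full palindrome TGACGTCA, in which the 2 strands' cores overlap, began at position -48 relative to the start of Sst, and 1.15% of the 32851 promoters in the table hold it in the same 100 bases. The core alone began at position -47 for Cck and at -79 for Vip, and 10.5% of promoters hold it in that window. These letters do not occur in the 100 bases before Npy. Over 250 bases, 5 of the 10 genes hold the core on either strand: Sst, Cck, Vip, Gad2 and Dlx2, against 17.8% of all promoters. A match is a description of the letters and not evidence that a factor binds there.

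Dlx1 and Dlx2 are neighbours whose annotated starts lie 17309 bases apart on chromosome 2, and their upstream windows are shown because both genes were low on the same neuron arrays, as given below. The windows are chr2:71529345-71529444 on the plus strand for Dlx1 and chr2:71546755-71546854 on the minus strand for Dlx2, with the same core in capitals.
Dlx1: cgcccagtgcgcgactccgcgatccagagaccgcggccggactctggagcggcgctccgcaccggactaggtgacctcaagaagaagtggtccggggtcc
Dlx2: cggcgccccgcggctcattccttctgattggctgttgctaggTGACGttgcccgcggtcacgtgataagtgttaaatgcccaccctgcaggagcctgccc

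The homeodomain core TAATTA, which reads the same on both strands and is the class of site that Dlx proteins bind, occurred in the 250 upstream bases of 1 of the 10 genes, at 1 of the starts listed for Sp8, against 4.84% of all promoters.

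Levels are log2 processed intensities relative to the 75th percentile of the same array, so 0 is the level that 3 in 4 probes do not exceed. A level compares arrays for 1 probe and does not rank genes. Between 57.5% and 67.3% of spots per array were well above background by the scanner flag. The 3 slides were each scanned in a session of their own: slide 1 holds all neuron arrays, where Klotho arrays fill row 2 and control arrays row 1, and where the replicate number is the column number. By the scanner files slide 2 holds the control astrocytes and slide 3 the Klotho-treated astrocytes. The deposited value table assigns 6 of the 8 astrocyte columns to another array than the scanner file of the same sample, and which assignment is right could not be settled. Astrocyte groups are named by scanner file unless the value table is named, the values under its assignment are given beside each comparison, and the neuron columns match their own arrays. The astrocyte cultures carried the markers of their label, with 8 of 10 astrocyte genes called higher than in control neurons. They also carried those of microglia, with 8 of 9 called higher, although the labels state a purity above 98%. Of all genes and unnamed probes tested, 21.5% were called higher. In the neuron cultures all 10 astrocyte genes were well above background on every array.

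Gad1 encodes the larger of the GABA-producing glutamate decarboxylases, which makes most of the transmitter in the cell body. Its levels were -2.76, -1.98, -2.77 and -2.47 in Klotho-treated astrocytes and -3.12, -3.36, -2.98 and -3.33 in control astrocytes. The same probe read 4.44, 4.26, 4.14 and 4.08 in Klotho-treated neurons and 4.48, 3.90, 4.12 and 3.93 in control neurons. Gad1 was well above background on all 16 arrays, the astrocyte arrays lay far below the neuron arrays, and by scanner file the treated astrocyte arrays all lay above the control arrays. Under the value table's assignment those groups overlapped.

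Gad2 encodes the smaller decarboxylase, found at nerve terminals. In Klotho-treated astrocytes Gad2 read -4.18, -3.81, -4.17 and -4.74, all well above background, and in control astrocytes -6.90 and -7.21, which were not well above background, and -4.30 and -5.29, which were. Neurons stood at 3.60, 2.88, 2.87 and 2.78 with Klotho and at 3.53, 2.74, 2.80 and 2.77 in controls. The treated and control astrocytes overlapped, and in neurons the first replicate of each group was higher than the other 3.

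Slc32a1 encodes the vesicular GABA transporter, which loads the transmitter into synaptic vesicles. Its brighter probe read -2.46, -3.02, -3.14 and -4.52 in Klotho-treated astrocytes. In control astrocytes it read -7.24 and -6.69, not well above background, and -3.68 and -5.45. Neurons read 6.71, 5.69, 5.86 and 5.75 with Klotho and 6.70, 5.96, 5.92 and 5.94 in controls. As for Gad2, the first 2 control astrocyte arrays were at background, and the 2 astrocyte groups overlapped.

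Sst encodes somatostatin, the peptide of a large dendrite-targeting interneuron class. On none of the 8 astrocyte arrays was it well above background, with levels from -7.83 to -7.18 with Klotho and from -8.43 to -7.16 in controls. In neurons it stood at 6.07, 5.85, 5.91 and 5.78 with Klotho and at 6.34, 5.44, 5.78 and 5.57 in controls. The range of the treated neurons lay inside that of the control neurons.

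Npy encodes neuropeptide Y, found in neurogliaform and many somatostatin cells. Klotho-treated astrocytes read 0.08, -0.29, -1.25 and -0.87, and control astrocytes -1.25, -1.14, -1.67 and -1.78. Neurons read 3.1, 3.90, 4.01 and 3.79 with Klotho and 3.31, 3.32, 3.76 and 3.64 in controls. Npy was well above background on every astrocyte array, unlike the other 3 peptide genes.

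Cck encodes cholecystokinin, the peptide of a basket cell class that also occurs in excitatory cells. It read -4.33, -4.06, -6.60 and -2.93 in Klotho-treated astrocytes, of which the third was not well above background, and -6.09, -6.27, -7.49 and -6.58 in control astrocytes, of which only the second was. Neurons read 6.94, 6.47, 6.50 and 6.43 with Klotho and 7.29, 6.38, 6.62 and 6.44 in controls. Replicate 3 was the one Klotho-treated astrocyte array within the control range.

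Vip encodes vasoactive intestinal peptide, made by interneurons that mostly inhibit other interneurons. No astrocyte array was well above background, with levels from -8.52 to -6.63 with Klotho and from -8.65 to -6.39 in controls. Neurons read -0.19, -0.42, -0.29 and -0.29 with Klotho and -0.09, -0.55, -0.19 and -0.24 in controls. All 8 neuron arrays were well above background and the 2 groups overlapped.

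Dlx1 and Dlx2 encode homeodomain factors of the ventral forebrain that act early in interneuron specification. Dlx1 read -2.32, -1.96, -2.59 and -2.51 in Klotho-treated astrocytes and -3.46, -3.22, -2.89 and -3.31 in control astrocytes. In neurons Dlx1 read 1.65, 3.61, 3.58 and 3.70 with Klotho and 0.99, 3.52, 3.63 and 3.74 in controls. The first replicate of both neuron groups was low, and by scanner file, though not under the value table's assignment, the treated astrocytes all lay above the control astrocytes. Dlx2 read 0.03, -0.75, -0.42 and -1.36 in Klotho-treated astrocytes and -0.39, -0.27, -0.97 and -1.30 in control astrocytes. In neurons Dlx2 read 0.88, 2.66, 2.66 and 2.74 with Klotho and 1.06, 3.09, 2.87 and 2.95 in controls. Its neuron replicate 1 arrays were again the low ones, and the astrocyte groups overlapped.

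Sp8 encodes a zinc-finger factor of interneurons that come from the caudal and lateral ganglionic eminences. Its brighter probe read -2.98, -3.46, -3.77 and -4.24 in Klotho-treated astrocytes and -6.73, which was not well above background, -5.36, -3.95 and -5.11 in control astrocytes. In neurons Sp8 read -0.16, 2.35, 2.49 and 2.63 with Klotho and -0.03, 2.45, 2.72 and 2.86 in controls. The neuron groups overlapped and their first replicates stood far below the others.

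**Figure D1:**
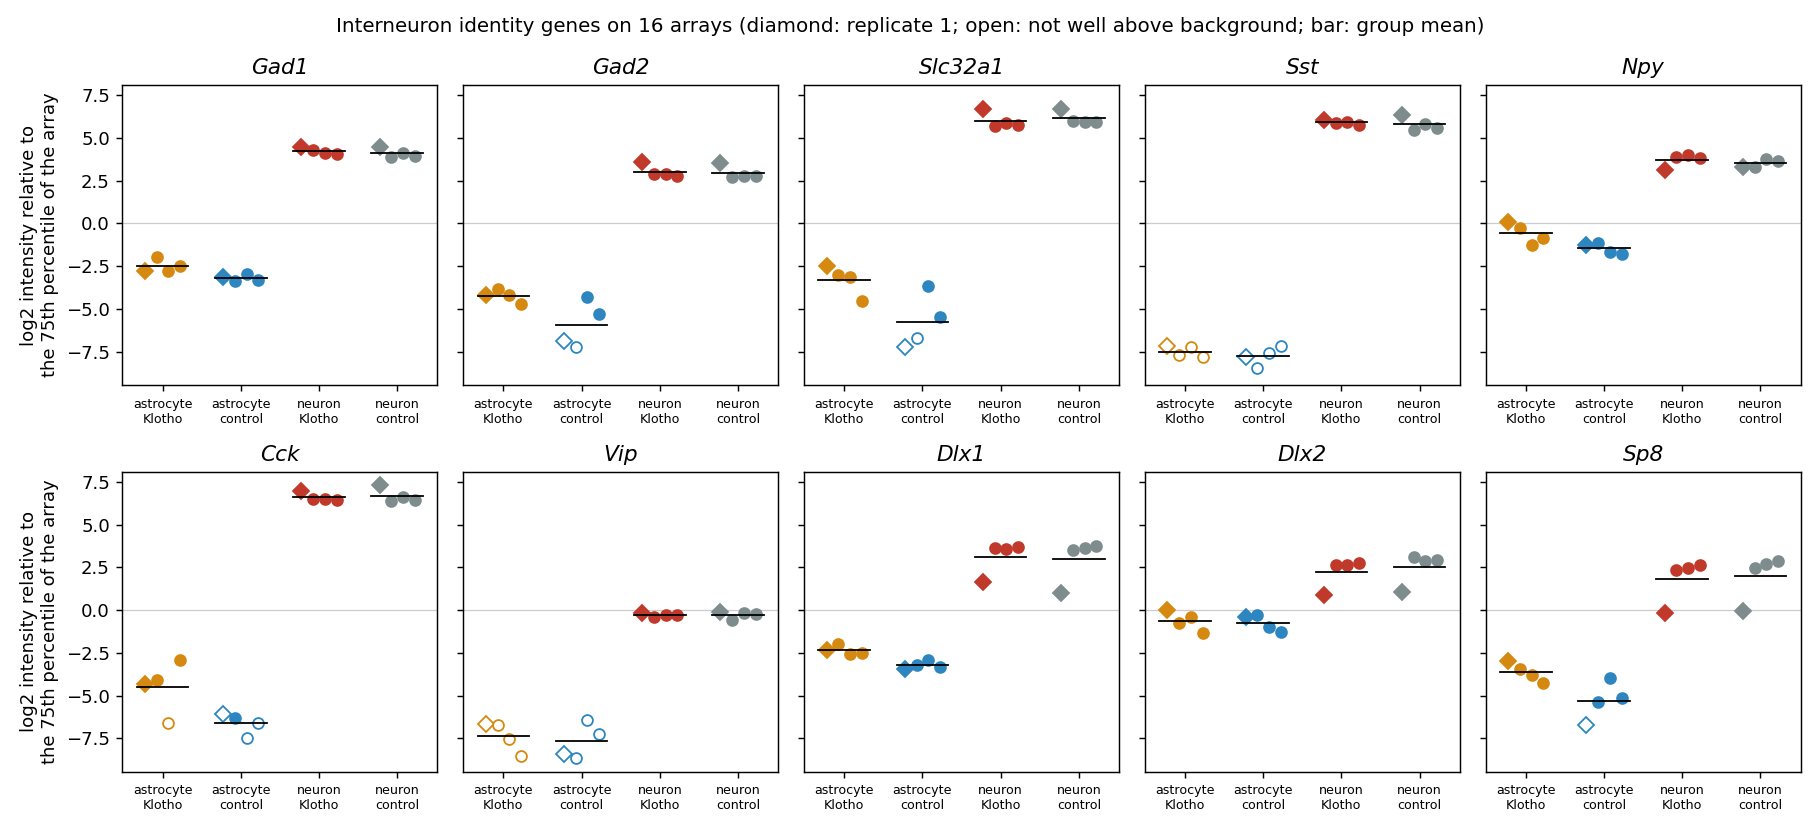
Level of each of the 10 genes on each array (y axis, log2 intensity relative to the 75th percentile of the array) by group, with replicate 1 as a diamond, open symbols for arrays not well above background and a bar at the group mean. Astrocyte arrays sit below neuron arrays for every gene, and Dlx1, Dlx2 and Sp8 have low diamonds in both neuron groups.

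The first comparison asks how the genes differ between the cell cultures without treatment. All 10 genes were called lower in control astrocytes than in control neurons (limma, Benjamini-Hochberg adjusted p below 0.05 over 30544 tested units, a unit being 1 gene or 1 unnamed probe), against 29.9% of units called lower and 21.5% called higher. Of the 10, 4 were well above background on all 8 arrays (Gad1, Npy, Dlx1 and Dlx2) and 6 entered the test through the neuron arrays alone. Cell type coincides with slide, culture medium and age of the animal here, so their effects cannot be told apart, and neither can fewer cells of a type and less RNA per cell.

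Among the GABA genes, Gad1 averaged -3.20 ± 0.18 in control astrocytes and 4.11 ± 0.27 in control neurons (SD, n = 4 each), a log2 difference of -7.31 ± 0.21 (SE, adjusted p = 7.7e-08 by limma). Slc32a1 and Gad2 were above background on 2 of 4 control astrocyte arrays each. With every control astrocyte array set at the higher of its own level and the lowest level called above background on that array, Slc32a1 was at least 3120-fold and Gad2 at least 374-fold lower in control astrocytes. The dimmer Slc32a1 probe gave a log2 difference of -3.50, the same direction with a much smaller size.

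Of the peptide genes, Sst was above background on no control astrocyte array and was at least 4229-fold lower there by the same rule. Vip was at least 64.0-fold lower in control astrocytes, and Cck, above background on 1 of 4 control astrocyte arrays, at least 7068-fold lower. Npy, above background on all arrays, had a log2 difference of -4.97 ± 0.22 (SE). Of the transcription factors, Sp8, above background on 3 of 4 control astrocyte arrays, was at least 142-fold lower in control astrocytes. Dlx1 differed by -6.18 ± 0.58 and Dlx2 by -3.23 ± 0.47 on the log2 scale (± SE), Dlx2 with adjusted p = 4.6e-04 by limma. The second Sp8 probe gave -1.29. All 10 genes were again called lower in 2 alternatives chosen after the data were seen, without the neuron and astrocyte replicate 1 arrays and under the value table's assignment.

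The comparison under Klotho gave the same 10 calls, against 35.5% of 27803 units called lower and 27.4% called higher in Klotho-treated astrocytes than in Klotho-treated neurons. Here 7 of the 10 genes were well above background on all 8 arrays and 3 (Sst, Cck and Vip) entered through the neurons alone. Gad1 averaged -2.50 ± 0.37 in Klotho-treated astrocytes and 4.23 ± 0.16 in Klotho-treated neurons (SD, n = 4 each), a log2 difference of -6.73 ± 0.22 (SE). Sst was at least 3389-fold lower and Vip at least 46.2-fold lower in Klotho-treated astrocytes, and Cck, above background on 3 of 4 of those arrays, at least 1803-fold lower. Dlx2 had a log2 difference of -2.86 ± 0.45 with adjusted p = 3.9e-04 by limma. Under the value table's assignment all 10 were again called lower, with -7.02 ± 0.32 for Gad1 and -3.16 ± 0.45 for Dlx2 (log2 difference ± SE).

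Other genes of the GABA system, from lists chosen for this tissue, moved in both directions. Of 10 tested genes for GABA synthesis, transport and breakdown other than the 10 followed here, 5 (50%) were called lower and 2 (20%) higher in control astrocytes against control neurons, beside 29.9% and 21.5% of all units, with a median log2 difference of -0.61, against -0.21 over all units. Slc6a11, a GABA uptake transporter, averaged -3.74 in control astrocytes and 2.42 in control neurons, a log2 difference of -6.17 ± 0.35, and Slc12a5, the chloride exporter of mature neurons, differed by -5.55 ± 0.37 (SE). Aldh5a1, an enzyme of GABA breakdown, was called higher in control astrocytes, by 1.16 ± 0.27, and so was Slc38a1, a glutamine transporter, by 0.81 ± 0.28.

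For the genes that receive GABA, 11 of 12 GABA-A receptor and scaffold genes were called lower in control astrocytes and 1 was called higher. Of all units, 29.9% were called lower and 21.5% higher. Gabrb1 was the gene called higher, by 1.05 ± 0.30 (SE, adjusted p = 0.017 by limma). Of 11 tested neuropeptide receptor genes, 8 (72.7%) were called lower and 2 (18.2%) higher in control astrocytes, the higher share being near the 21.5% of all units. Sstr1, a somatostatin receptor, was at least 362-fold lower there, while Vipr2 and Sstr5 were each called higher by 1.01 on the log2 scale.

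Among 14 other interneuron transcription factor genes, 8 (57.1%) were called lower and 3 (21.4%) higher in control astrocytes, the higher share being that of all units within 1 percentage point. Sp9, a relative of Sp8, was at least 53.3-fold lower. The 3 called higher were Sox6 by 2.02 ± 0.25, Npas1 by 1.39 ± 0.45 and Maf by 0.65 ± 0.24 (log2 difference ± SE). Of 15 other interneuron class genes, 14 were called lower, against 29.9% of all units. Pvalb, the calcium buffer parvalbumin, was called higher by 1.62 ± 0.26. For comparison, 10 of 11 glutamatergic cortical neuron genes were called lower in control astrocytes and none higher, against 29.9% and 21.5% of all units.

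The second question is whether Klotho changed these genes in neurons. No gene of the 10 was called in either direction, against 0.125% of 28847 units called lower and 0% called higher in Klotho-treated neurons, where 1188 units, or 4.12%, and 0 of the 10 genes had an unadjusted p below 0.05. In neurons treatment coincides with the row of the slide, and the 2 cannot be told apart. The treated and control groups overlapped for all 10 genes, and the separation of all 4 arrays occurred in 2.71% of units downward and 1.41% upward. With the replicate number as a block, which lowers the count of called units to 22, no gene of the 10 was called.

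Same-numbered neuron arrays may be pairs, which was not established, so differences within a number were also taken. Klotho minus control was -0.18, -0.43, -0.21 and -0.22 for Dlx2 over numbers 1 to 4, and -0.12, -0.10, -0.22 and -0.23 for Sp8. For Gad2 it was 0.08, 0.14, 0.08 and 0.01. These 3 genes had 1 sign in all 4 pairs and the other 7 did not. The share of all units with 1 sign was not computed, so the count is a description only. With the block Dlx2 had adjusted p = 0.395 by limma, the smallest of the 10.

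The intervals differ in width. For Gad1 the log2 difference was 0.12 with a 95% interval from -0.23 to 0.48, and for Vip -0.03 with an interval from -0.31 to 0.26. Sst had 0.12 with an interval from -0.32 to 0.56 and Npy 0.19 with an interval from -0.29 to 0.68. For the transcription factors the intervals were wider: Dlx1 had 0.17 with an interval from -1.42 to 1.75, Dlx2 -0.26 with an interval from -1.53 to 1.01, and Sp8 -0.17 with an interval from -1.99 to 1.65. These 3 genes were low on replicate 1 in both groups. Leaving out both replicate 1 arrays gave 0.00 ± 0.08 for Dlx1, -0.29 ± 0.08 for Dlx2 and -0.18 ± 0.13 for Sp8 (log2 difference ± SE), and adjusted p = 0.144 by limma for Dlx2, the smallest of the 10.

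Gene groups around them were likewise uncalled in neurons. No gene was called among 10 other GABA genes, 12 GABA-A receptor and scaffold genes, 11 neuropeptide receptor genes, 14 other interneuron transcription factors and 15 other interneuron class genes. The smallest unadjusted p among the other transcription factors was that of Lhx6, a factor of the medial ganglionic eminence, at 3.52 in Klotho-treated neurons and 3.28 in control neurons, a log2 difference of 0.24 ± 0.10 with adjusted p = 0.998 by limma. Beside these, 8 of 11 tested liver genes were called lower in Klotho-treated neurons, against 0.125% of all units. Their part in the results for the 10 genes was not tested.

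**Figure D2:**
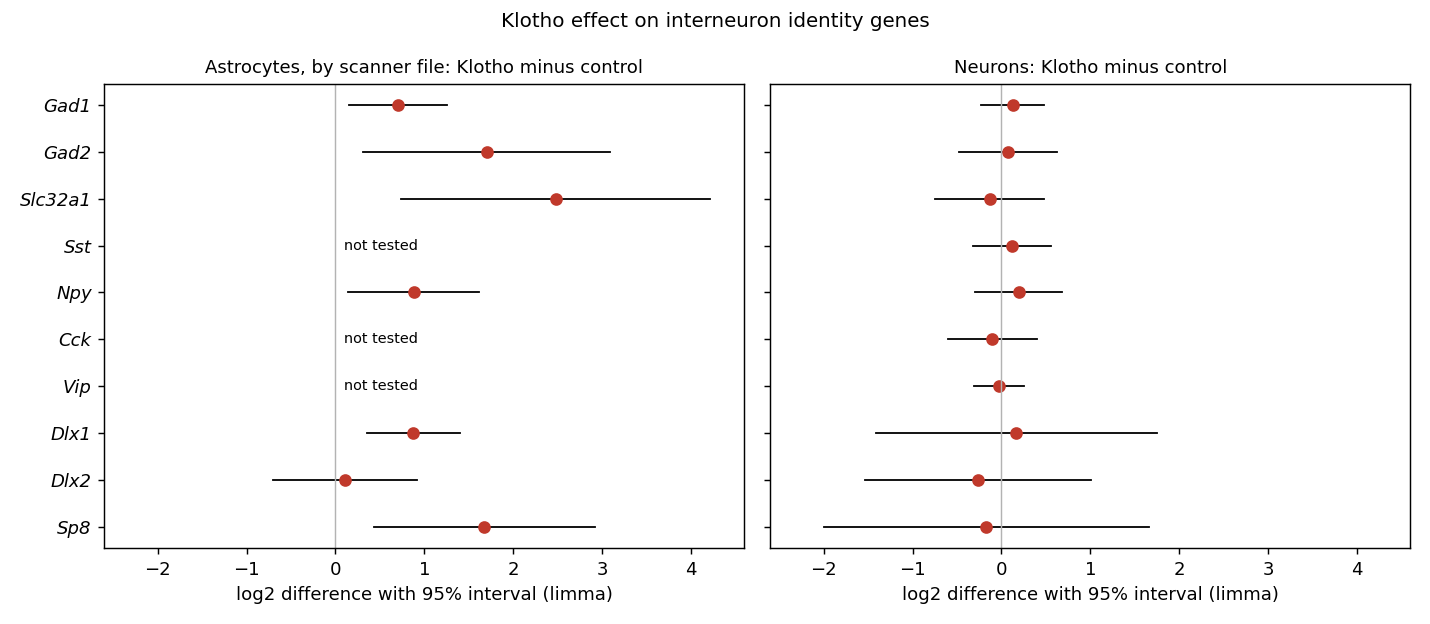
Log2 difference of Klotho-treated minus control arrays (x axis) with the 95% interval from limma for each gene, in astrocytes by scanner file on the left and in neurons on the right. In astrocytes Gad1, Npy and Dlx1 have intervals above 0 before adjustment, with none called after it. Gad2, Slc32a1 and Sp8 are drawn too, but no interval is read for them. They entered through the Klotho arrays against partly undetected controls. All neuron intervals include 0.

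In astrocytes the same question has 2 answers, one per assignment of arrays. By scanner file, treatment coincides with slide and scan session, so their effects cannot be told apart. By scanner file, 7 of the 10 genes entered the test, 4 of them above background on all 8 arrays and 3 (Gad2, Slc32a1 and Sp8) through the Klotho arrays alone. Sst, Cck and Vip did not pass. None of the 7 was called, and 0% of 27145 units were called in either direction, with a smallest adjusted p of 1.00 over all units by limma and 966 units at an unadjusted p below 0.05, or 3.56%.

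Dlx1 averaged -2.34 ± 0.28 in Klotho-treated astrocytes and -3.22 ± 0.24 in control astrocytes (SD, n = 4 each), a log2 difference of 0.87 with a 95% interval from 0.35 to 1.40. For Gad1 the log2 difference was 0.70 with an interval from 0.15 to 1.25. In both genes all 4 treated arrays lay above all 4 control arrays, which held for 0.998% of units. Npy had 0.88 with an interval from 0.14 to 1.62, and Dlx2 had 0.11 with an interval from -0.71 to 0.92. Gad2, Slc32a1 and Sp8 entered through the Klotho arrays, so the filter itself favours a higher treated level, and no interval is read for them. Minimum folds were taken per probe, with each control array at the higher of its own level and its lowest detected level. In Klotho-treated astrocytes the brighter Slc32a1 probe was at least 4.56-fold higher, the brighter Sp8 probe 2.91-fold and Gad2 2.58-fold, with no call. The filter favours these folds as well, so they are not read as a Klotho effect. The dimmer Slc32a1 probe differed by 0.20 on the log2 scale, and the second Sp8 probe went the other way, at -0.26.

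Detection of Gad2 and of the brighter Slc32a1 and Sp8 probes moved with the row of the slide. In row 1 neither control array was above background for Slc32a1 or Gad2 and 1 of 2 was for Sp8. The row 1 gap of these probes has only a lower bound. Slide 3 (Klotho) was at least 12.5-fold higher than slide 2 (control) for Slc32a1, 5.24-fold for Gad2 and 5.87-fold for Sp8. The second probes, well above background on every row 1 astrocyte array, did not show that gap. For Slc32a1 the second probe read -4.47 and -4.86 with Klotho and -4.62 and -4.65 in controls. For Sp8 the second probe read -3.30 and -4.18 with Klotho and -3.30 and -3.47 in controls. In row 2 all arrays were above background for Gad2 and the brighter probes. There the slide 3 minus slide 2 log2 difference was 0.73 for Slc32a1, 0.34 for Gad2 and 0.53 for Sp8. For Gad1 it was 0.87 in row 1 and 0.53 in row 2, for Dlx1 1.2 and 0.55, and for Npy 1.09 and 0.67, all with no test of the difference between rows. Cck, which was not tested, was not well above background on 4 of the 8 astrocyte arrays. Its detection went the other way, on 3 arrays of row 1 and 1 of row 2. The dimmer Slc32a1 probe was undetected only on control replicate 3 of the astrocytes, in row 2.

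By the assignment of the value table, the log2 difference of Klotho-treated minus control astrocytes was 0.12 for Gad1, 0.06 for Dlx1, 0.00 for Npy, -0.49 for Dlx2 and -0.18 for Sp8, and the 5 tested genes had no call. Gad2 and Slc32a1 did not pass the filter there and differed by -0.37 and -0.79 as plain means. That assignment places the treated arrays in one column of both slides. Within slide 3 its difference was 0.54 for Gad1 and 0.22 for Dlx1, and within slide 2 it was -0.29 and -0.09, so the sign differed between slides for both.

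NF-kappaB target genes, which mark inflammatory activation of glia, were higher on most slide 3 arrays, but the slides overlapped. Of 12 such genes 0 were called by scanner file. The mean log2 level of 12 such genes was 3.61, 5.76, 0.01 and 5.30 in Klotho-treated astrocytes and 0.06, 0.16, -1.86 and -1.11 in control astrocytes. Replicate 3 stood lowest of the treated arrays in that list, and Gad1, Npy, Cck and Dlx1 were also lowest on it. Cck was not well above background there. Gad1 stood at -2.769 on that array and at -2.764 on treated replicate 1, nearly the same. Gad2, Dlx2 and the brighter Slc32a1 and Sp8 probes were instead lowest on treated replicate 4, where the list stood at 5.30. The part of that list in the results for the 10 genes was not tested. The 2 groups overlapped for 10 general neuron genes, whose mean log2 level was -1.23, -1.39, -1.64 and -1.63 in Klotho-treated astrocytes and -1.42, -1.41, -1.72 and -1.54 in control astrocytes.

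**Figure D3:**
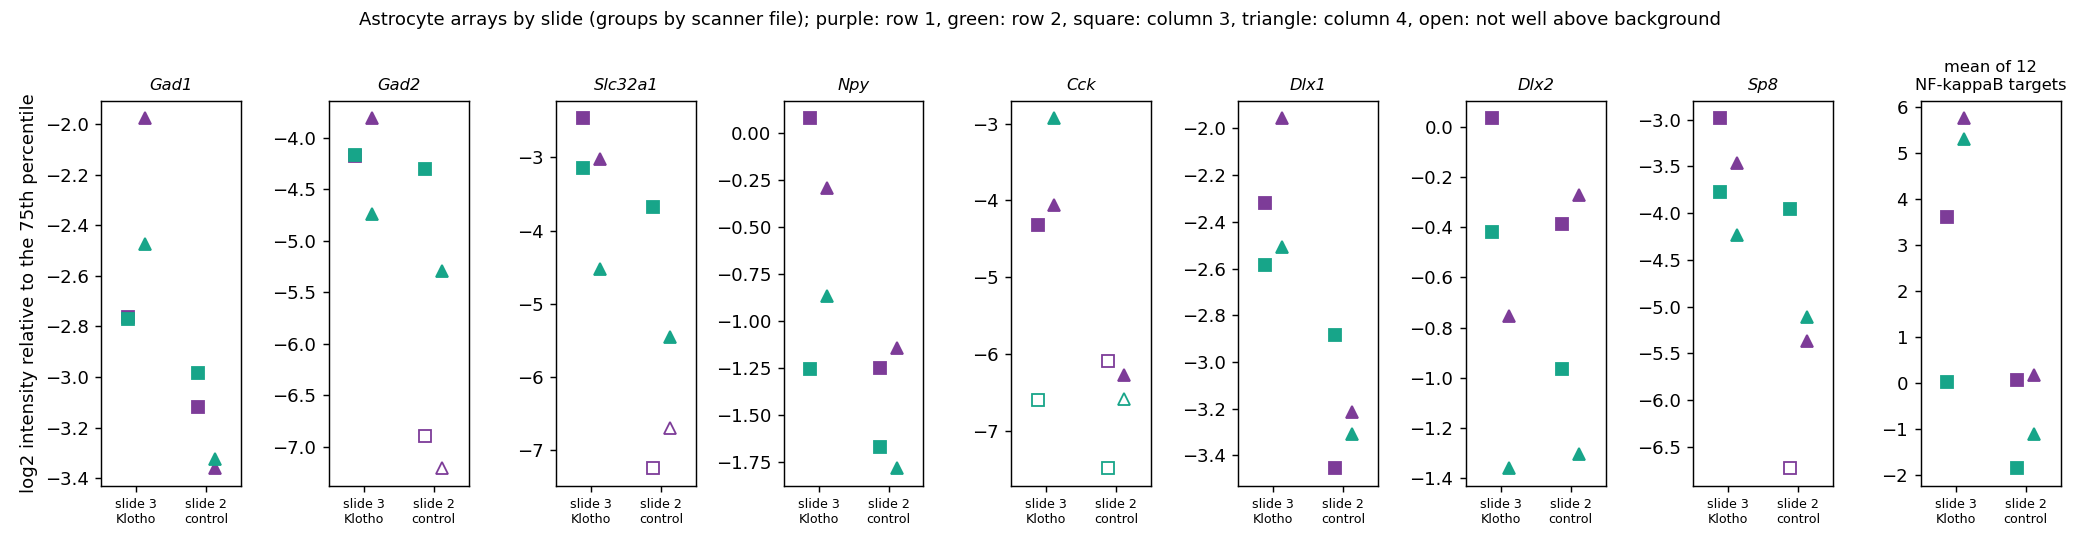
Level on each astrocyte array (y axis, log2 intensity relative to the 75th percentile, a scale per panel) by slide, with slide 3 left of slide 2, for 8 genes and for the mean of 12 NF-kappaB target genes. Purple marks row 1 and green row 2, squares column 3 and triangles column 4, and open symbols arrays not well above background. Both slide 2 arrays of row 1 are open for Gad2 and Slc32a1, and 1 is open for Sp8.

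Crh, a stress peptide of some interneurons, had the smallest unadjusted p of the class genes in astrocytes, with -3.54 in Klotho-treated astrocytes and -4.97 in control astrocytes, a log2 difference of 1.43 ± 0.33. Cnr1, the cannabinoid receptor of Cck basket cells, differed by 1.41 ± 0.35 on the same scale, with 0.12 in Klotho-treated and -1.28 in control astrocytes. Neither was called, with adjusted p = 1.00 each by limma, and under the value table's assignment Crh differed by -0.06 and Cnr1 by 0.02 as plain means. None of 9 other GABA genes, 9 GABA-A genes, 7 neuropeptide receptor genes, 10 other interneuron transcription factors and 6 class genes that were tested was called.

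The difference between the 2 Klotho effects was tested directly, first by scanner file. In that assignment treatment coincides with slide in astrocytes and with slide row in neurons, and these cannot be told apart. None of the 10 genes was called by limma, against 0.0684% of 30696 units called higher and 0.00652% called lower for the effect in astrocytes minus that in neurons, and 4.87% of units had an unadjusted p below 0.05. For Gad1 it was 0.58 with an interval from -0.04 to 1.20, and for Dlx1 0.71 with an interval from -0.94 to 2.35. Slc32a1, Gad2 and Cck entered this test through other arrays while 2, 2 and 3 of their 4 control astrocyte arrays were below background, so their estimates have no measured size. Cck was called without replicate 3 of the Klotho-treated astrocytes, with adjusted p = 0.0188 by limma, against those largely undetected controls. Under the value table's assignment none of the 10 was called, with 18 units higher and 1 lower, and the estimate was 0.00 for Gad1, -0.10 for Dlx1, -0.45 for Gad2 and -0.65 for Slc32a1.

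Neuron replicate 1 stood apart in both groups. Both of its arrays lie in column 1 of slide 1, and the description that follows has no test because there is 1 such array per group. Relative to the mean of replicates 2 to 4, replicate 1 was lower for Sp8 by 2.65 in Klotho-treated and 2.71 in control neurons, for Dlx1 by 1.98 in Klotho-treated and 2.64 in control neurons, and for Dlx2 by 1.81 in Klotho-treated and 1.91 in control neurons, all on the log2 scale. At most 0.519% of the 25249 units above background on all 8 neuron arrays lay as low as any of these 3 on the mean of both deviations, and 2.73% of units were lower by 1 or more on both arrays. The second Sp8 probe did not follow, with deviations of 0.23 in Klotho-treated and 0.32 in control neurons.

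The GABA and most peptide genes deviated the other way, higher on both replicate 1 arrays, as were 42.0% of all units. Slc32a1 was higher in replicate 1 by 0.95 in Klotho-treated and 0.76 in control neurons, with 1.49 in Klotho-treated and 1.40 in control neurons for its dimmer probe, and Gad2 was higher by 0.76 in both. Cck was higher by 0.48 in Klotho-treated and 0.81 in control neurons, and Sst by 0.22 in Klotho-treated and 0.74 in control neurons. Gad1 was higher by 0.27 in Klotho-treated and 0.50 in control neurons, and Vip by 0.14 in Klotho-treated and 0.24 in control neurons. On the mean of both deviations, the share of units at or below these 6 genes ran from 63.5% for Vip to 95.4% for Slc32a1. Npy was the exception among the peptide genes, with deviations of -0.80 in Klotho-treated and -0.26 in control neurons.

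**Figure D4:**
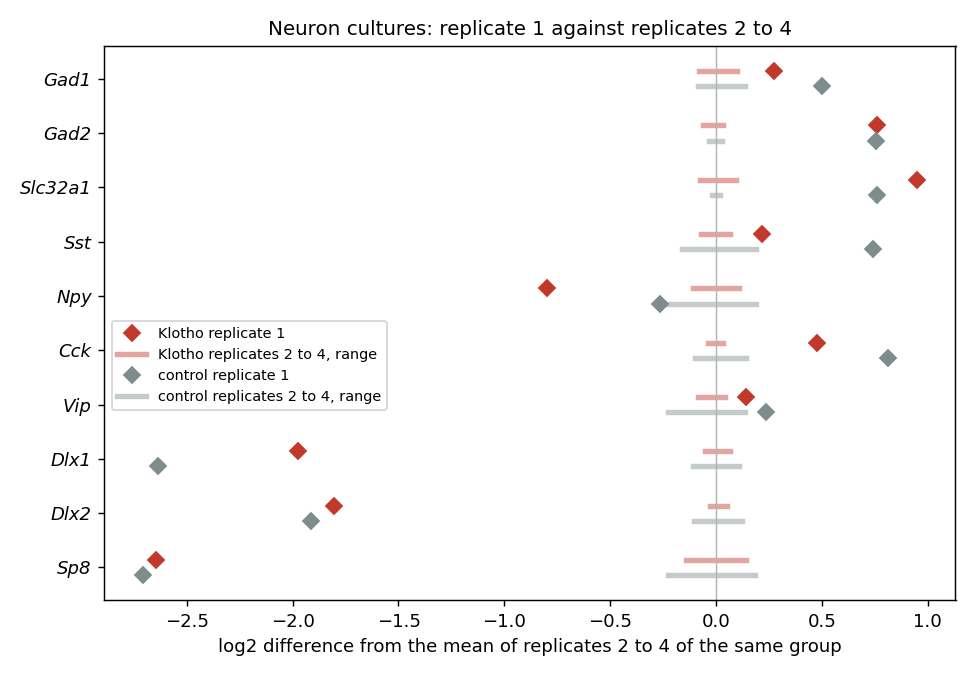
Deviation of neuron replicate 1 from the mean of replicates 2 to 4 of its group (x axis, log2) for each gene, with Klotho-treated above control, and thick lines for the range of replicates 2 to 4. Dlx1, Dlx2 and Sp8 lie below -1.5 in both groups, and Gad2 and Slc32a1 lie between 0.76 and 0.95.

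Other genes of the same roles were described in the same way. Of 14 other interneuron transcription factors above background on all neuron arrays, 10 were lower on both replicate 1 arrays and 2 were higher on both, beside 39.3% and 42.0% of all units. The 4 of them that were lower by 1 or more on both arrays, named after their values were seen, were Nkx2-1, Sp9, Dlx5 and Prox1. Nkx2-1, which specifies the medial ganglionic eminence, deviated by -2.13 in Klotho-treated and -2.45 in control neurons, and Dlx5 by -1.35 in Klotho-treated and -1.41 in control neurons. Sp9 deviated by -1.47 in Klotho-treated neurons and by -1.2 in control neurons. Prox1, a factor of caudal eminence interneurons, deviated by -1.02 in Klotho-treated and -1.44 in control neurons, and Lhx6 by 0.08 in Klotho-treated and 0.09 in control neurons. All 12 GABA-A receptor and scaffold genes were higher on both arrays, with median deviations of 0.74 in Klotho-treated and 0.77 in control neurons. Astrocyte markers were lower there, 8 of 10 on both arrays, with a mean log2 level of the list of 1.76 on replicate 1 against 2.34 to 2.43 on the others in Klotho-treated neurons, and 1.99 against 2.43 to 2.68 in control neurons, and 8 of 11 oligodendrocyte lineage genes were lower on both. Of the other neuron classes, 8 of 11 glutamatergic cortical neuron genes and 7 of 10 general neuron genes were higher on both replicate 1 arrays. Of 9 striatal projection neuron genes, 5 were higher and 3 lower on both. Of these 9, 3 were higher by 1 or more on both, against 1.68% of all units. They were Ppp1r1b, Penk and Adora2a, named after their values were seen. Ppp1r1b deviated by 2.06 in Klotho-treated and 2.39 in control neurons. The part of these cell markers in the deviations was not tested.

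Genes whose levels ran most like those of Gad1 and Dlx1 were ranked by Pearson's r as a description, over arrays that share slides and, in neurons, the low replicate 1. Over 8 neuron arrays and 14588 symbols, Dlx1 ran most like Sh3bgrl (r = 0.997), Zfp825, Dlx6os1 (r = 0.996), Zfx and Mbtd1, and its r with Sp8 was 0.978 and with Dlx2 0.958. Gad1 ran most like Tmem200c (r = 0.993), Baiap2l2, Dpysl5, Tex44 and Slc12a8 there, with r = 0.951 for Sst and r = -0.834 for Dlx1. Over 8 astrocyte arrays and 14697 symbols, Gad1 ran most like Mid1 (r = 0.969), Fzd7, Csf1, Smpd3 and Slitrk4, and Dlx1 most like Elmod2 (r = 0.989), Dcstamp, Hspa5, Fabp4 and Eif2ak3. In astrocytes Gad1 and Dlx1 had r = 0.909 with each other, and Dlx2 had r = -0.117 with Gad1 and 0.063 with Dlx1.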

How the data were processed

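Total RNA (200 ng) was labelled with Cy3, per the labels' protocols, and hybridised to Agilent design 028005. Per the file headers, scanner files were made with Feature Extraction 12.0.3.1, protocol GE1_1200_Jun14, with probes placed on NCBI37. Their deposited columns are linear intensity values, background-subtracted and not normalized between arrays. The deposited value table states no unit: how the authors made its score values is not given in the sources used here. Each column equals the standardised log2 intensity of 1 array within 0.00502, the next best array being off by 1.67 or more, and 10 of 16 columns match their own sample.

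Intensities were averaged over the spots of a probe, log2-transformed and centred on the 75th percentile of each array. The brightest probe stood for a gene, and unnamed probes stayed single, which gave 48718 units. A unit was tested if well above background on all 4 arrays of either group, with limma 3.58.1 in R 4.3.3, at a Benjamini-Hochberg adjusted p below 0.05. The files hold no mean signal column, so normexp used the median signal, with an offset of 50. The fit was tested on simulated data. The number of arrays limits precision, and intensity gives no counting error.

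Groups came from the sample titles. Deviations of same-numbered arrays from their group means correlated in the Klotho comparisons, with r from 0.160 to 0.755 in neurons and from 0.155 to 0.730 in astrocytes. In neurons, Klotho arrays 2 and 4 ran most like a control array of another number. An array that stands apart in both groups, such as neuron replicate 1, also raises these r. Pairing was therefore not established, and the block served as an alternative only. Between cell types r ran from -0.144 to 0.283. Alternatives covered background, centring, filters, probes, blocks, assignment and omitted arrays. The members and lists were chosen with earlier results of these data known. All 10 genes are named, and from each other list up to 3 genes by p, or by size in each direction between cell types. Some genes that this rule gives are not reported here. No column of sample values stayed unused (0 others). Promoter sequences are from RefSeq, with 10 of 10 genes matched.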

Additional observations from a re-analysis of the deposited data

Results flagged for a closer look

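In groups of 4 arrays, an array was singled out where its gap to the nearest of the others exceeded Dixon's 95% critical share of the group's whole range. Of 40 gene and group combinations 11 met this, and all 11 were neuron replicate 1 arrays. Earlier results of these data had named replicate 1 as apart, and genes on the same array can deviate together. The count is therefore a description without a test, and the share of all units meeting the rule was not computed. As the highest of its group, replicate 1 of the Klotho-treated neurons stood at 3.60 for Gad2, 6.71 for Slc32a1 and 6.94 for Cck, and replicate 1 of the control neurons at 3.53 for Gad2 and 6.70 for Slc32a1, as log2 levels relative to the 75th percentile. As the lowest of its group, replicate 1 of the Klotho-treated neurons stood at 1.65 for Dlx1, 0.88 for Dlx2 and -0.16 for Sp8, and replicate 1 of the control neurons at 0.99 for Dlx1, 1.06 for Dlx2 and -0.031 for Sp8. No astrocyte array was singled out.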

How the results depend on the processing

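Every call on the 10 genes was recomputed under 18 to 25 alternatives per comparison. All calls lower in astrocytes held wherever a gene was tested, with Gad1 between -7.38 and -6.68 on the log2 scale in the control comparison outside the value table's own units. Requiring detection on all arrays compared left 4 genes tested and 4 called lower in control astrocytes, since fewer genes were tested. For the difference between the 2 Klotho effects, the count of genes called higher ranged from 0 to 1 over single arrays left out, the 1 being Cck without replicate 3 of the Klotho-treated astrocytes, against control astrocyte arrays of which 3 of 4 were below background, and the cause was not tested. Under the replicate block, 0 of the 10 genes were called in neurons or in astrocytes under Klotho, Dlx2 in neurons kept -0.26 with adjusted p = 0.395 by limma, and the block changed no other call. The value table assignment, chosen after the data were seen for 3 of the comparisons, changed the sign of uncalled astrocyte values such as Sp8 (-0.18).

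Counts over all units moved more. Units called lower in Klotho-treated neurons numbered 36, against 22 with the block, 6 with normexp, 3 when detected on all arrays, 58 in the value table, 14 without both replicate 1 arrays and 235 without a filter, where 6917 were called higher. Leaving out single neuron arrays gave 16 to 53 lower, with 16 without Klotho replicate 1, 20 and 18 without control replicates 3 and 4, and 23 without Klotho replicate 3. In astrocytes 15 were called higher without Klotho replicate 3 and 1 without control replicate 3. For the difference of effects, 21 higher and 2 lower became 135 and 15 without astrocyte Klotho replicate 3, 9 and 0 with normexp, 44 and 0 in the value table, 35 and 1 without neuron control replicate 2, and 0 and 0 with detection on all arrays.

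Signal near background limits Sst, Vip and Cck in astrocytes, and the 2 probes of Slc32a1 and of Sp8 differ in size and, for Sp8 under Klotho in astrocytes, in sign.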
